A study of Mus musculus with 12 samples.

Results

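Oocyte pools without mitofusin 2 were compared with oocyte pools that had it, over all genes and with the state of mitofusin 1 taken into account. The 6 pools without Mfn2 were 3 Mfn2-/- pools, which still had Mfn1, and 3 Mfn1&2-/- pools, which lacked both genes. The 6 pools with Mfn2 were 3 WT pools and 3 Mfn1-/- pools. Together they are all 12 pools of the series, chosen by the genotype in their labels. Total RNA had been sequenced from fully grown oocytes at the germinal-vesicle stage, the arrest in meiotic prophase that an oocyte keeps inside its follicle. Each pool held 50 oocytes from unprimed C57BL/6J mice aged 21 to 23 days, with the cumulus cells stripped off by pipetting. The labels give each genotype as whole-gene symbols and name no deleted exon, allele or Cre driver. Whether pools of 1 genotype came from different animals is not stated, so the p-values below measure only how far these pools differ, which may be technical.

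Mitofusins are GTPases in the outer membrane of mitochondria, where they pull neighbouring mitochondria together and fuse them. Mfn2 also sits at contact sites between mitochondria and the endoplasmic reticulum (ER), through which lipids and calcium pass. A growing oocyte makes and stores the transcripts that carry it through maturation and the first divisions, and it supplies energy for this almost entirely through its mitochondria.

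Each library held 11575357 to 16024893 counts over 11385 genes. Levels are given in CPM, counts per 1000000 library counts after scaling by edgeR's TMM factors, at which 3 counts in a library equal 0.188 to 0.253 CPM. Of the 17 oocyte markers, 16 were measured, and they summed to 15201 to 19533 CPM without Mfn2 and to 13787 to 17020 CPM with it. Of 18 granulosa and cumulus markers, 13 were measured, at a sum of 459 to 561 CPM without Mfn2 and 528 to 950 CPM with it, and the highest sum lay in WT replicate 3. No theca marker of 12 was measured. On the first principal component, with 27.5% of the variance, the pools without Mfn2 stood at 26.96 to 33.9 and the pools with Mfn2 at -35.8 to -24.2.

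Mfn2 (chr4:147873599-147904704 in GRCm38, the whole gene) checked the labels first. It had 9.19, 10.8 and 13.5 CPM in the Mfn2-/- pools and 12.3, 10.1 and 9.99 CPM in the Mfn1&2-/- pools, against 87.2, 73.4 and 68.4 CPM in WT and 70.8, 64.5 and 64.3 CPM in Mfn1-/- pools. The groups did not overlap, and the pools without Mfn2 kept 15.4% of the level of the others (log2 fold change -2.70 ± 0.12; adjusted p = 9.46e-10, edgeR quasi-likelihood test). Whole-gene counts do not show from which exons the remaining reads came. Mfn1 (chr3:32529465-32579239) had 245, 217 and 228 CPM in the Mfn2-/- pools and 26.4, 19.1 and 14.8 CPM in the Mfn1&2-/- pools, against 264, 278 and 297 CPM in WT and 17.8, 18.9 and 17.7 CPM in Mfn1-/- pools. Its level split the pools by the other deletion, as labelled, and loss of Mfn2 did not change it by the test (-0.09 ± 0.12; adjusted p = 0.719, edgeR quasi-likelihood test).

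The first question was which genes changed when Mfn2 was lost, whichever state Mfn1 was in. In a model with 1 term for Mfn1 and 1 for Mfn2, fitted with edgeR's quasi-likelihood test and Benjamini-Hochberg adjustment over all genes, 897 of 11385 genes (7.88%) were called at an adjusted p below 0.05. Of these, 479 rose and 418 fell, 292 by more than 2-fold (157 higher, 135 lower) and 55 by more than 8-fold. All 897 had the same sign in both Mfn1 backgrounds. A model with 1 shared term for Mfn2 hardly calls genes with opposite effects, so this describes the calls only. The median absolute log2 fold change was 0.68 among called genes, against 0.19 over all genes. With library size as the only scaling 449 rose and 460 fell. Without WT replicate 3, where granulosa transcripts were highest, 752 genes were called (410 higher, 342 lower). The part of those transcripts in single calls was not tested.

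The second question was which of these changes could be seen with Mfn1 present and again with Mfn1 absent. Mfn2-/- against WT called 1297 genes (11.4%), 515 higher (4.52%) and 782 lower (6.87%). Mfn1&2-/- against Mfn1-/- called 610 (5.36%), 314 higher (2.76%) and 296 lower (2.6%). The 2 comparisons share no pool. With library size as the only scaling the splits were 684 higher to 689 lower and 255 higher to 407 lower. Single pools moved these counts: Mfn2-/- against WT called 821, 708 or 759 without Mfn2-/- replicate 1, 2 or 3 and 730 without WT replicate 3, and Mfn1&2-/- against Mfn1-/- called 377 or 389 without Mfn1&2-/- replicate 2 or 3 and 295 or 352 without Mfn1-/- replicate 1 or 2. Called in both were 180 genes, of which 167 moved the same way and 13 the opposite way. The 167 genes (1.47% of those tested), of which 97 rose (0.852%) and 70 fell (0.615%), are called held in both backgrounds here. They made up 12.9% of the calls in Mfn2-/- against WT and 27.4% of the calls in Mfn1&2-/- against Mfn1-/-. Their median absolute log2 fold change was 1.22, with 97 beyond 2-fold and 29 beyond 8-fold. In 136 of them (82 higher, 54 lower) the 6 pools without Mfn2 lay apart from the 6 with it, as they did in 398 of all genes (3.5%; 228 higher, 2%, and 170 lower, 1.49%). Both figures rest on the contrast that chose the 167, so they describe them only. Across all genes the log2 fold changes of the 2 backgrounds had the same sign in 53.5%, and in 61.1% and 76.6% of the genes called in Mfn2-/- against WT and in Mfn1&2-/- against Mfn1-/-. Of the 897 calls, 331 were also called with Mfn1 present alone, 191 with Mfn1 absent alone, and 208 in neither background by itself.

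**Figure D1:**
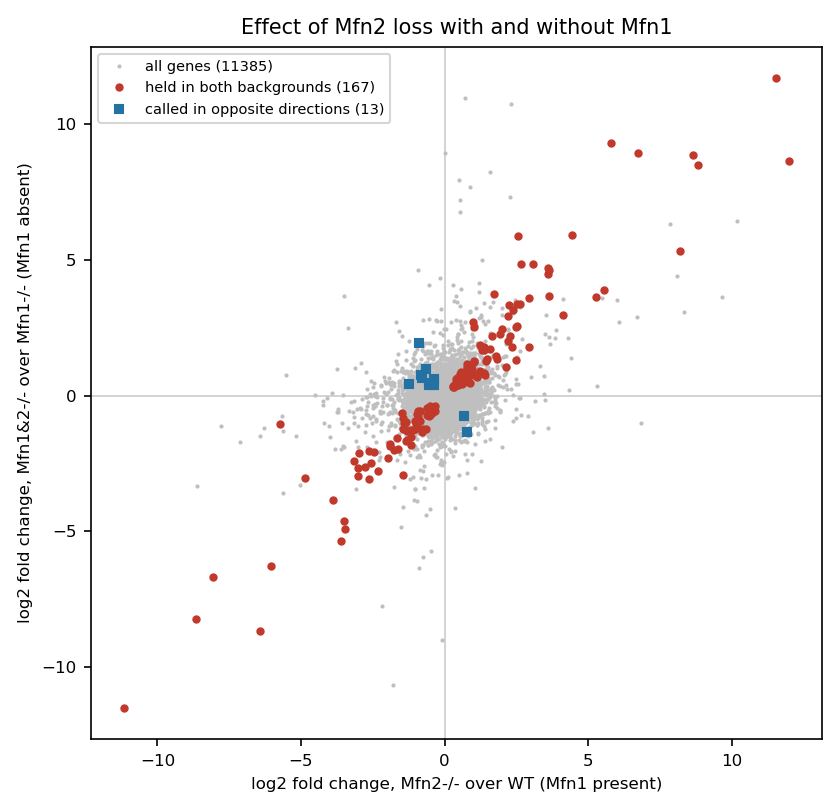
Each point is 1 gene, at its log2 fold change in Mfn2-/- over WT on the horizontal axis and in Mfn1&2-/- over Mfn1-/- on the vertical axis. Red points mark the 167 genes held in both backgrounds, which lie to the lower left and upper right by their definition. Blue squares mark the 13 genes called in opposite directions.

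Among the genes that rose most and held in both backgrounds, several were close to silent in oocytes that had Mfn2. Fam124a, of little-known function (chr14:62555737-62608486), had 34.7, 28.6 and 20.7 CPM in the Mfn2-/- pools and 32.2, 20.8 and 39.7 CPM in the Mfn1&2-/- pools, against 0, 0 and 0 CPM in WT and 0, 0 and 0 CPM in Mfn1-/- pools. Every pool without Mfn2 held it and no pool with Mfn2 had a single count, so it was at least 753-fold higher when 3 counts are put in place of the pooled 0. Btla, an inhibitory receptor of lymphocytes (chr16:45224315-45257670), had 96.1, 92.9 and 87.2 CPM in the Mfn2-/- pools and 34.7, 37.4 and 69.3 CPM in the Mfn1&2-/- pools, against 0, 0.169 and 0.418 CPM in WT and 0.301, 0 and 0.0833 CPM in Mfn1-/- pools. Its level was lower in Mfn1&2-/- than in Mfn2-/- pools, but all 6 stood far above the others (log2 fold change 8.69 ± 0.37; adjusted p = 5.12e-10, edgeR quasi-likelihood test). Zbtb7c, a zinc-finger transcription factor, had 7.91, 14.99 and 23.3 CPM (lowest, median and highest) in the 6 pools without Mfn2, against 0, 0.292 and 1.25 CPM in the 6 with it (5.05 ± 0.54).

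The promoters of Fam124a and Btla, and of Dhrs3, which fell most among the genes named by size, are shown because each gene was near absent in all 6 pools of 1 side and clearly present in all 6 of the other. The 250 bases before each RefSeq start, on GRCm38.p6 and read 5′ to 3′ in the direction of the gene, are printed with every CG dinucleotide in capitals.
Fam124a, chr14:62555487-62555736, plus strand: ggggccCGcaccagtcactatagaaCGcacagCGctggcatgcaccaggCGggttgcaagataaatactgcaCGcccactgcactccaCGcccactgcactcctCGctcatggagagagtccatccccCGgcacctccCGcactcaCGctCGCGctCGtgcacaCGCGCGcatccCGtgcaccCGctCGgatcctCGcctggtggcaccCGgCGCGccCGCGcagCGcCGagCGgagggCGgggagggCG
Btla, chr16:45224087-45224336, plus strand: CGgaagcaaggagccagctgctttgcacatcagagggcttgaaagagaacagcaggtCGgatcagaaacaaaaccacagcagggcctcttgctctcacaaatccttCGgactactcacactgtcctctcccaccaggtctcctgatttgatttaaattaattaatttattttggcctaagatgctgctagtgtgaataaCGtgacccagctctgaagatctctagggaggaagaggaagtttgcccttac
Dhrs3, chr4:144892577-144892826, plus strand: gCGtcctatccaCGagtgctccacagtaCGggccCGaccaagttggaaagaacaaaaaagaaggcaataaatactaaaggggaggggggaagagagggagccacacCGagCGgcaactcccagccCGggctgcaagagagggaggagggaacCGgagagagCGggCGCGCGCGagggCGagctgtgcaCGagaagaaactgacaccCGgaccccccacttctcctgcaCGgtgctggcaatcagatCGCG
The Fam124a window holds 30 CG dinucleotides (70.4% G and C, observed over expected CG 0.99), the Btla window 4 (47.2%, 0.29) and the Dhrs3 window 19 (61.6%, 0.81). Over the 32851 promoters of the same table and length the median is 6 CG dinucleotides, and 34.0% have an observed over expected ratio of at least 0.6. Fam124a and Dhrs3 lie above that ratio and Btla below it. Most genes tested here also lie high: over the 9168 with a value the median ratio is 0.78, with quartiles of 0.58 and 0.92. Dhrs3 lies between these quartiles, Fam124a above the upper and Btla below the lower.

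Acsf2, a mitochondrial acyl-CoA synthetase, had 11.3, 15.4 and 11.8 CPM in the Mfn2-/- pools and 14.98, 15.8 and 15.5 CPM in the Mfn1&2-/- pools, against 0.479, 0.337 and 3.67 CPM in WT and 0.226, 0.627 and 0.750 CPM in Mfn1-/- pools (3.88 ± 0.50; adjusted p = 2.11e-04, edgeR quasi-likelihood test). WT replicate 3 stood above the other pools with Mfn2 and still below every pool without it. Abcb11, the bile salt export pump, had 6.82, 13.8 and 18.4 CPM (lowest, median and highest) in the 6 pools without Mfn2, against 0.719, 0.859 and 3.41 CPM in the 6 with it (3.49 ± 0.40). Reep1, which shapes tubular ER membranes, had 6.71, 16.3 and 21.0 CPM (lowest, median and highest) in the 6 pools without Mfn2, against 1.505, 2.68 and 3.76 CPM in the 6 with it (2.56 ± 0.29). Neither overlapped between the groups.

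Bicc1, an RNA-binding protein whose fly relative acts in oogenesis, had 101, 80.9 and 91.7 CPM in the Mfn2-/- pools and 141, 107 and 61.8 CPM in the Mfn1&2-/- pools, against 9.90, 13.2 and 12.4 CPM in WT and 7.37, 6.40 and 11.8 CPM in Mfn1-/- pools (3.27 ± 0.22; adjusted p = 1.40e-07, edgeR quasi-likelihood test). Even the lowest pool without Mfn2 stood far above the highest pool with it. Mapk10, the stress kinase JNK3, had 7.74, 24.1 and 26.7 CPM (lowest, median and highest) in the 6 pools without Mfn2, against 3.23, 5.37 and 5.93 CPM in the 6 with it (2.10 ± 0.24). Rnf165, a ubiquitin ligase, was higher in Mfn2-/- pools (20.7, 27.8 and 31.1 CPM) than in Mfn1&2-/- pools (5.81, 5.52 and 13.0 CPM), and both lay above WT (3.51, 3.46 and 3.34 CPM) and Mfn1-/- pools (2.41, 2.19 and 2.50 CPM). That difference between the backgrounds did not pass the interaction test (-1.17 ± 0.45; edgeR adjusted p = 0.155). Car10, a carbonic anhydrase relative without enzyme activity (2.25 ± 0.29), Draxin, an axon guidance protein (2.92 ± 0.35), and Ccdc30, of little-known function (2.23 ± 0.36), complete the 12 largest increases named by size among held genes whose pools did not overlap. Ccdc30 was no longer called in both backgrounds without Mfn2-/- replicate 2 or 3 or WT replicate 2 or 3.

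The genes that fell most were likewise close to absent where Mfn2 was missing. Dhrs3, which reduces retinal and so limits retinoic acid (chr4:144892827-144928209), had 0, 0.166 and 0.0669 CPM in the Mfn2-/- pools and 0, 0.131 and 0.303 CPM in the Mfn1&2-/- pools, against 36.3, 40.4 and 22.3 CPM in WT and 56.6, 45.1 and 39.1 CPM in Mfn1-/- pools. It kept 0.278% of the level seen with Mfn2 (-8.40 ± 0.36; adjusted p = 5.12e-10, edgeR quasi-likelihood test). Prr15l, of little-known function (chr11:96928104-96937830), had 0, 0.664 and 0 CPM in the Mfn2-/- pools and 0, 0 and 0.151 CPM in the Mfn1&2-/- pools, against 17.5, 21.7 and 13.6 CPM in WT and 27.6, 21.5 and 22.5 CPM in Mfn1-/- pools (-7.27 ± 0.57). No more than 1 of the 3 pools in either genotype without Mfn2 had any count. Tie1, a receptor kinase known from endothelium (chr4:118471191-118490061), had 0, 0.0830 and 0 CPM in the Mfn2-/- pools and 0, 0.197 and 0 CPM in the Mfn1&2-/- pools, against 4.63, 9.62 and 12.6 CPM in WT and 5.72, 10.3 and 9.08 CPM in Mfn1-/- pools (-7.23 ± 0.60; adjusted p = 1.55e-06, edgeR quasi-likelihood test).

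Since Tie1 is an endothelial marker, the other markers of that list stand beside it. Of 19 endothelium, blood and immune markers, 4 were measured, with a summed level of 147 to 192 CPM without Mfn2 and 132 to 156 CPM with it. Tek and Kdr, the other endothelial receptor kinases among them, were not called (0.02 ± 0.12 and 0.82 ± 0.29; edgeR adjusted p = 0.943 and 0.104). Pecam1, an adhesion molecule, rose slightly (0.29 ± 0.09; adjusted p = 0.046, edgeR quasi-likelihood test), a call lost without any 1 of the 12 libraries. The log2 fold changes of these 3 were above 0, unlike that of Tie1. In pooled cells a smaller number of cells of a type and less RNA per cell cannot be told apart.

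Extl1, a glycosyltransferase of heparan sulfate, had 0, 1.16 and 4.46 CPM (lowest, median and highest) in the 6 pools without Mfn2, against 15.1, 28.5 and 65.7 CPM in the 6 with it (-4.40 ± 0.62; adjusted p = 4.35e-04, edgeR quasi-likelihood test). Grb7, an adaptor of receptor kinases, had 0, 0.232 and 2.42 CPM (lowest, median and highest) in the 6 pools without Mfn2, against 3.59, 7.45 and 11.02 CPM in the 6 with it (-3.81 ± 0.68), with Mfn1&2-/- replicate 3 alone above 1 CPM among the pools without Mfn2. Rab3b, a GTPase of secretory vesicles, had 2.61, 3.68 and 5.68 CPM (lowest, median and highest) in the 6 pools without Mfn2, against 14.1, 17.8 and 23.4 CPM in the 6 with it (-2.26 ± 0.22). All 3 genes were apart between the groups, and Grb7 was no longer called in both backgrounds without Mfn2-/- replicate 3, Mfn1&2-/- replicate 1 or 2, WT replicate 1 or 2, or any 1 Mfn1-/- pool. Tceanc2, which has a domain of transcription elongation factors, fell (-2.85 ± 0.21), as did Pnrc2, a partner of mRNA decapping (-2.56 ± 0.40), Fstl1, a secreted glycoprotein (-2.54 ± 0.40), and Hsd17b13, a lipid-droplet enzyme (-2.76 ± 0.43). Zfp534, a zinc-finger gene with close relatives that can share its reads, also fell (-2.85 ± 0.28). Of these, Pnrc2 lost its call in both backgrounds without Mfn2-/- replicate 2 or 3 or WT replicate 3, Fstl1 without Mfn1&2-/- replicate 3 or Mfn1-/- replicate 1 or 3, and Hsd17b13 without Mfn1&2-/- replicate 2 or 3 or Mfn1-/- replicate 1 or 2.

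**Figure D2:**
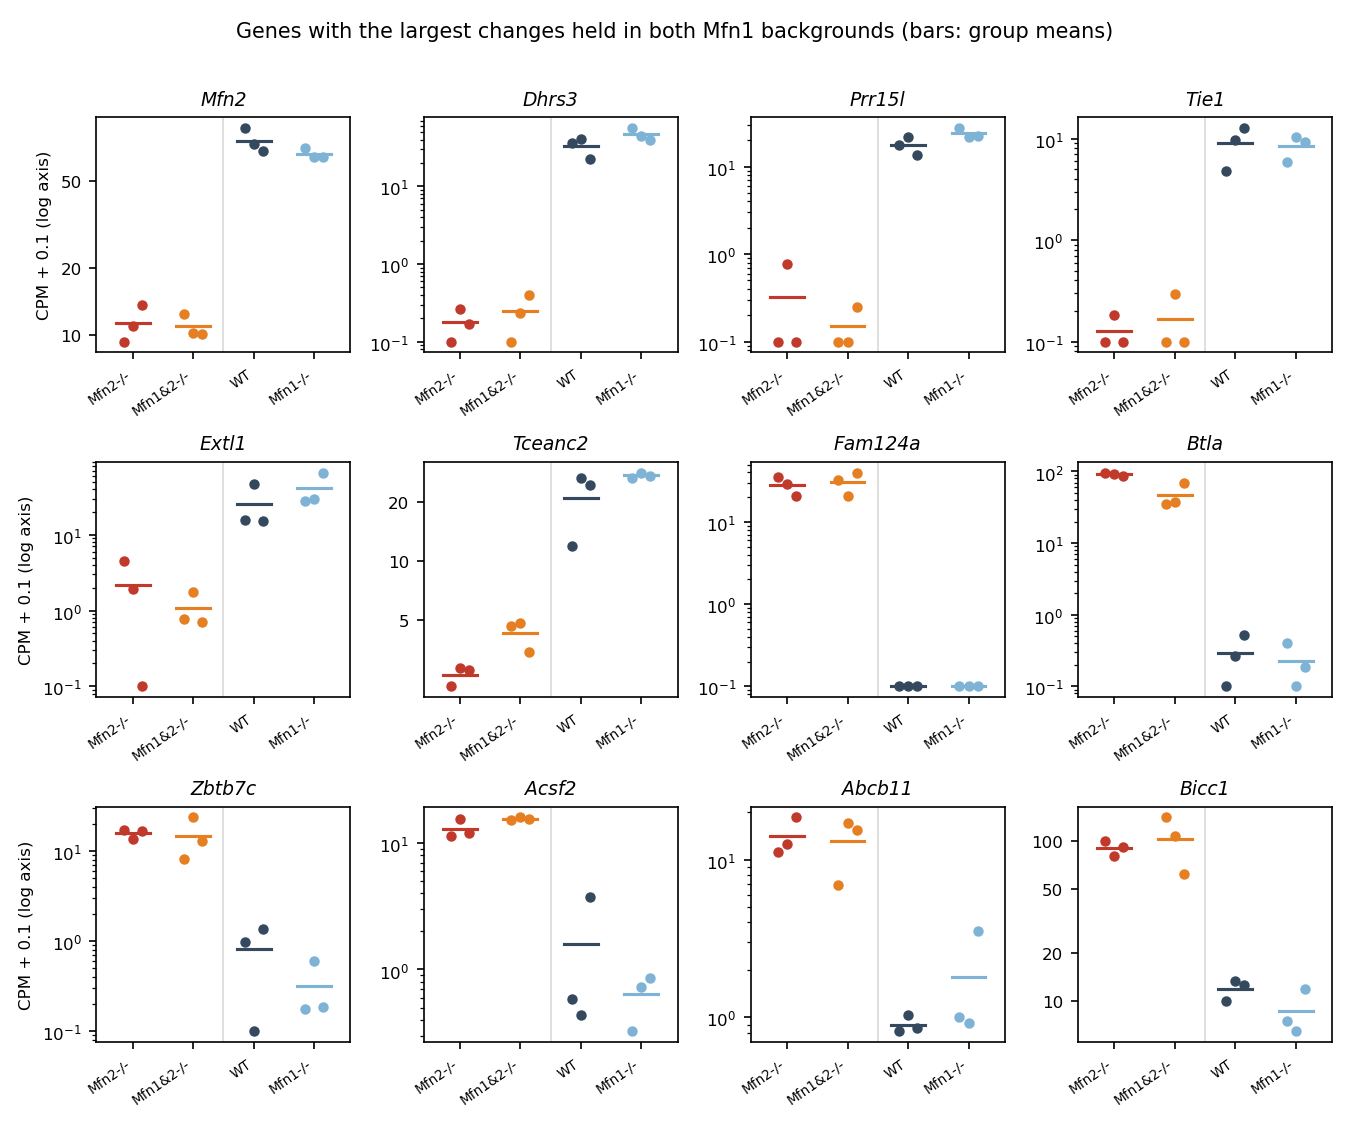
Dots are single pools and bars are means of the 3 pools of a genotype, in CPM plus 0.1 on a log axis, for Mfn2 and 11 of the genes with the largest changes. In every panel the 6 pools to the left of the grey line, without Mfn2, lie apart from the 6 to its right, and Fam124a sits at the bottom of the axis in all pools with Mfn2.

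By a rule of size, 15 genes averaged at least 5 CPM without Mfn2 and under 1 CPM with it, and 11 did the reverse. Of the 15, 5 were held in both backgrounds, and of the 11, 8 were. Cacna1s, a muscle calcium channel among the 5, was high in 5 of the 6 pools without Mfn2 but had no count in Mfn2-/- replicate 1, so its groups overlapped (0, 41.4 and 72.4 CPM in Mfn2-/- pools and 67.0, 173.8 and 86.3 CPM in Mfn1&2-/- pools, against 0, 0 and 0 CPM in WT and 0.226, 0.439 and 0.0833 CPM in Mfn1-/- pools). The transcript named 4930562C15Rik, of the 8, had no count in any pool without Mfn2 and 17.0 to 29.0 CPM in the pools with it. Both were chosen after their values were seen.

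Counts of list members are read against the 7.88% of all genes that were called (4.21% higher, 3.67% lower), beside a median log2 fold change of 0 over all genes. In the fusion and fission list, 1 of 23 measured members rose and 2 fell, Mfn2 among them, with a median of -0.08. Mtfr1l, a regulator of mitochondrial fission, had 39.6, 45.4 and 60.4 CPM (lowest, median and highest) in the 6 pools without Mfn2, against 59.1, 74.4 and 85.4 CPM in the 6 with it (-0.65 ± 0.12; adjusted p = 0.00438, edgeR quasi-likelihood test). Its groups overlapped, and it was no longer called in both backgrounds without Mfn2-/- replicate 2 or 3, Mfn1&2-/- replicate 2 or 3, WT replicate 1 or 2, or Mfn1-/- replicate 1 or 3. Among 32 genes of ER contact and calcium, 1 rose and 1 fell (median 0.05). The riser, Ccdc109b (Mcub), dampens calcium uptake through the mitochondrial uniporter, and it had 84.3, 74.5 and 70.3 CPM in the Mfn2-/- pools and 122, 17.8 and 130.0 CPM in the Mfn1&2-/- pools, against 10.6, 11.1 and 19.5 CPM in WT and 15.3, 15.2 and 16.3 CPM in Mfn1-/- pools (2.50 ± 0.34; adjusted p = 3.33e-04, edgeR quasi-likelihood test). Mfn1&2-/- replicate 2 alone stayed within the range of the pools with Mfn2.

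Of 81 subunits of oxidative phosphorylation 2 rose and 1 fell (median 0.09), and with library size as the only scaling 0 rose and 1 fell. Leaving out 1 library gave 0 to 2 higher and 0 to 2 lower. Of 77 mitochondrial ribosomal proteins 1 rose and 2 fell (median 0.05), of 24 chaperones and proteases 1 rose and 1 fell (median -0.01), and of 21 genes of mtDNA maintenance 0 rose and 2 fell (median -0.13). Afg3l2, a protease of the inner membrane, fell to 153 ± 5.59 CPM without Mfn2, against 219.9 ± 38.7 CPM with it (SD, n = 6 each; -0.51 ± 0.09; adjusted p = 0.00303, edgeR quasi-likelihood test). Nrf1, a transcription factor for respiratory genes, had 55.1, 74.4 and 179 CPM (lowest, median and highest) in the 6 pools without Mfn2, against 101, 179.7 and 234 CPM in the 6 with it (-1.04 ± 0.22). Mrps23, of the small mitochondrial ribosomal subunit, rose (0.99 ± 0.20). None of these 3 was called in Mfn1&2-/- against Mfn1-/- alone. Of 10 transport genes 1 rose (median 0.13). No gene of the citric acid cycle list (24 measured, median 0.01), of autophagy and mitophagy (43, 0.04) or of intrinsic apoptosis (20, 0.01) was called by edgeR. At an unadjusted p below 0.05 these lists had 2, 10 and 2 members. The share over all genes at that cut is not given here, but 65 of 284 Zfp zinc-finger genes and 53 of 193 solute carriers passed it. DESeq2, with 1291 calls over all genes, called 2, 1 and 0 members of the 3 lists. For limma-voom, with 935 calls over all genes, the counts were 1, 1 and 0.

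In the integrated stress response, which slows translation through the factor eIF2, 4 of 27 measured genes rose and 0 fell (14.8%, median 0.09), or 3 and 0 with library size as the only scaling, and 3 held in both backgrounds. Eif2ak3 (PERK), the ER-bound kinase that phosphorylates eIF2, had 114, 71.8 and 89.0 CPM in the Mfn2-/- pools and 148, 119 and 175 CPM in the Mfn1&2-/- pools, against 33.6, 35.9 and 36.2 CPM in WT and 49.5, 46.1 and 40.8 CPM in Mfn1-/- pools. All 6 pools without Mfn2 lay above the others (log2 fold change 1.54 ± 0.13; 1.38 with and 1.70 without Mfn1; adjusted p = 1.55e-06, edgeR quasi-likelihood test). Ddit4, a stress-induced inhibitor of mTORC1, had 72.4, 69.9 and 79.8 CPM in the Mfn2-/- pools and 47.4, 52.5 and 62.6 CPM in the Mfn1&2-/- pools, against 35.1, 39.5 and 26.1 CPM in WT and 34.6, 31.9 and 33.4 CPM in Mfn1-/- pools (0.92 ± 0.13; adjusted p = 3.38e-04, edgeR quasi-likelihood test). Vldlr, a lipoprotein receptor, had 6.92, 10.8 and 12.1 CPM (lowest, median and highest) in the 6 pools without Mfn2, against 2.42, 3.61 and 5.67 CPM in the 6 with it (1.47 ± 0.25). All 3 were apart between the groups. Ddit4 lost its call in both backgrounds without Mfn1&2-/- replicate 3 or Mfn1-/- replicate 1 or 2, and Vldlr without Mfn2-/- replicate 2 or 3 or WT replicate 2 or 3. In the ER unfolded protein response, Eif2ak3 was the sole call among 27 measured genes (median -0.04). At an unadjusted p below 0.05 that list had 7 members, a cut that 65 of 284 Zfp zinc-finger genes also passed.

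Of the antioxidant genes 1 of 26 rose and 3 fell (median 0.01). Txnrd1, the cytosolic thioredoxin reductase, had 105, 127 and 134 CPM in the Mfn2-/- pools and 138, 157 and 196 CPM in the Mfn1&2-/- pools, against 228, 231 and 246 CPM in WT and 223, 239.6 and 260.2 CPM in Mfn1-/- pools (-0.75 ± 0.10; adjusted p = 3.49e-04, edgeR quasi-likelihood test). The groups did not overlap, and the call in both backgrounds was lost without Mfn1&2-/- replicate 1 or 2 or Mfn1-/- replicate 3. Nfe2l2 (NRF2), the transcription factor that drives antioxidant genes, had 9.16, 11.6 and 17.9 CPM (lowest, median and highest) in the 6 pools without Mfn2, against 16.3, 20.0 and 22.0 CPM in the 6 with it (-0.64 ± 0.15; adjusted p = 0.0133, edgeR quasi-likelihood test), and it was called in neither background by itself.

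Glycolysis held 5 calls in 16 measured genes (31.2%), 3 higher and 2 lower (median -0.01), and library size as the only scaling gave 1 and 2. Leaving out 1 library always lowered the count of rises, to between 0 and 2, with 1 or 2 lower. It was 0 without Mfn2-/- replicate 2, Mfn1&2-/- replicate 2, any 1 WT pool or Mfn1-/- replicate 3. Pfkfb3, which makes the activator of phosphofructokinase, had 24.6, 27.6 and 45.0 CPM (lowest, median and highest) in the 6 pools without Mfn2, against 40.7, 56.0 and 73.6 CPM in the 6 with it (-0.86 ± 0.12; adjusted p = 5.57e-04, edgeR quasi-likelihood test). It was held in both backgrounds except without Mfn1-/- replicate 1, though the highest pool without Mfn2 passed the lowest pool with it. In cholesterol synthesis and uptake, 2 of 30 rose and 0 fell (median 0.05), namely Hsd17b7 (0.71 ± 0.14) and Sc5d (0.67 ± 0.12), enzymes of the later steps. Hsd17b7 was not called in Mfn1&2-/- against Mfn1-/- (edgeR adjusted p = 0.131). Sc5d had 76.2, 91.4 and 103 CPM (lowest, median and highest) in the 6 pools without Mfn2, against 44.6, 57.3 and 69.3 CPM in the 6 with it and was held in both backgrounds except without any 1 Mfn2-/- pool or WT replicate 1 or 2. Among 25 sphingolipid genes 2 rose (median 0.06), neither of them held in both backgrounds. Sgms2, a sphingomyelin synthase, was high in Mfn2-/- pools (14.7, 17.4 and 16.5 CPM), with 1.68, 3.62 and 8.63 CPM in Mfn1&2-/- pools, 1.68, 2.19 and 7.10 CPM in WT and 1.80, 1.38 and 0.4997 CPM in Mfn1-/- pools (2.03 ± 0.42).

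In the list of Kit, PI3K, Foxo3 and mTOR genes, which govern how an oocyte grows, 2 of 29 rose and 0 fell (median 0.01). Pik3cd, a catalytic subunit of PI3 kinase, had 2000.5, 1861 and 2058 CPM in the Mfn2-/- pools and 2289, 2228 and 2193 CPM in the Mfn1&2-/- pools, against 1251, 1106 and 1056 CPM in WT and 1131, 1051 and 1088 CPM in Mfn1-/- pools. The increase was under 2-fold but the groups lay wide apart (0.92 ± 0.07; adjusted p = 4.66e-07, edgeR quasi-likelihood test). Pik3cd lies 1.80 Mb from Mfn2 on the same chromosome, and whether that position bears on its change was not tested.

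**Figure D3:**
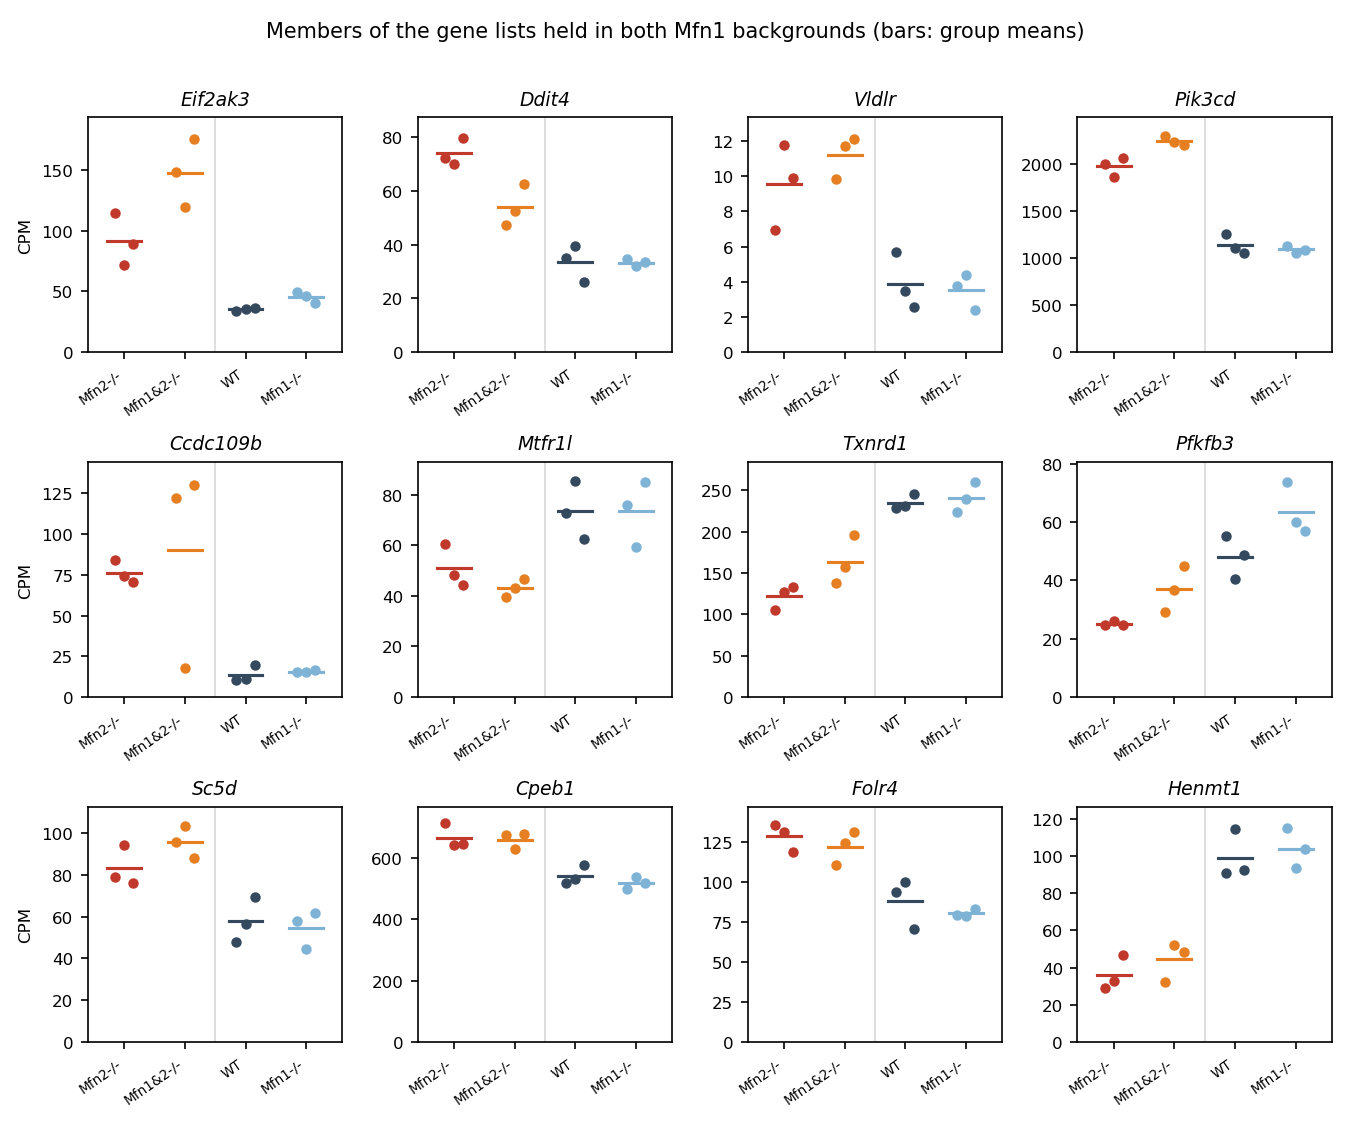
Dots are single pools and bars are means of the 3 pools of a genotype, in CPM on axes that start at 0, for 12 list members held in both backgrounds. Eif2ak3, Ddit4, Vldlr, Pik3cd, Sc5d, Cpeb1 and Folr4 are higher to the left of the grey line, without Mfn2, Txnrd1 and Henmt1 lower, and the groups overlap in Mtfr1l, Pfkfb3 and Ccdc109b.

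Of 25 zona pellucida, growth factor and transcription factor genes 6 rose and 1 fell (28%, median 0.14), and without WT replicate 3 the counts were the same. The one that fell was Sohlh2, a transcription factor of early oocyte growth, with 2.33, 5.36 and 6.56 CPM (lowest, median and highest) in the 6 pools without Mfn2, against 7.91, 10.04 and 12.9 CPM in the 6 with it (-1.04 ± 0.24; adjusted p = 0.0151, edgeR quasi-likelihood test). It was not called in Mfn1&2-/- against Mfn1-/- (edgeR adjusted p = 0.159), and it was chosen after its values were seen. Bmp15, the growth factor that oocytes secrete to their granulosa cells, had 1915, 1811 and 1747 CPM in the Mfn2-/- pools and 1431, 1607 and 1510.5 CPM in the Mfn1&2-/- pools, against 1340.4, 1310.5 and 1223 CPM in WT and 1343, 1238 and 1327 CPM in Mfn1-/- pools (0.36 ± 0.07; adjusted p = 0.00486, edgeR quasi-likelihood test). Its lowest pools without Mfn2 were Mfn1&2-/- pools, and Bmp15 was not called in Mfn1&2-/- against Mfn1-/- (edgeR adjusted p = 0.113). Folr4 (Juno), the egg receptor for sperm, had 111, 128 and 136 CPM (lowest, median and highest) in the 6 pools without Mfn2, against 70.7, 81.3 and 100.1 CPM in the 6 with it (0.57 ± 0.09; adjusted p = 0.00119, edgeR quasi-likelihood test) and was held in both backgrounds except without Mfn1-/- replicate 1. H1foo, the oocyte linker histone, rose (0.29 ± 0.06), but was not called in Mfn2-/- against WT (edgeR adjusted p = 0.0663). The 16 oocyte markers themselves had 4 higher and 1 lower (median 0.17), and the germ-cell RNA helicase Ddx4 was the one that fell, with 86.3, 98.4 and 125 CPM (lowest, median and highest) in the 6 pools without Mfn2, against 129, 135 and 180.4 CPM in the 6 with it (-0.51 ± 0.11; adjusted p = 0.00876, edgeR quasi-likelihood test). Ddx4 was not called in Mfn2-/- against WT (edgeR adjusted p = 0.102).

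Genes that store or remove maternal mRNA had 4 higher and 2 lower among 42 (14.3%, median 0.02). The lower count was 0 without Mfn2-/- replicate 1 or 3 and 1 without WT replicate 2. Cpeb1, which controls polyadenylation of dormant mRNAs, had 629, 661 and 714 CPM (lowest, median and highest) in the 6 pools without Mfn2, against 498, 525 and 579 CPM in the 6 with it (0.32 ± 0.06; adjusted p = 0.00421, edgeR quasi-likelihood test). Btg4, an adaptor for maternal mRNA decay (0.37 ± 0.08), and Pabpc1l, the poly(A)-binding protein of oocytes (0.27 ± 0.07), also rose. Neither Btg4 nor Pabpc1l was called in Mfn2-/- against WT. All 3 changed by under 1.5-fold, and Cpeb1 was no longer called in both backgrounds without Mfn2-/- replicate 1 or 3, Mfn1&2-/- replicate 1 or 3, WT replicate 1 or 2, or Mfn1-/- replicate 1 or 3. Among 37 maternal effect genes 1 rose and 2 fell (median 0.04), and among 45 genes of meiotic arrest and maturation 2 rose and 2 fell (median 0.04). Adcy9, an adenylyl cyclase, fell (-0.49 ± 0.11; adjusted p = 0.0117, edgeR quasi-likelihood test), but was not called in Mfn1&2-/- against Mfn1-/- (edgeR adjusted p = 0.145). Of 30 genes of contact between oocyte and granulosa cells 3 rose and 2 fell (16.7%, median -0.11). Notch2, a receptor, had 76.6, 93.1 and 113 CPM (lowest, median and highest) in the 6 pools without Mfn2, against 27.0, 56.1 and 70.3 CPM in the 6 with it (0.89 ± 0.21), and Daam1, an organiser of actin, had 248, 441 and 806 CPM (lowest, median and highest) in the 6 pools without Mfn2, against 711, 833 and 1068 CPM in the 6 with it (-1.02 ± 0.20). Neither was called in Mfn1&2-/- against Mfn1-/- (edgeR adjusted p = 0.285 and 0.168).

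Genes of transposon silencing had more falls than rises. Of 25 genes of the piRNA pathway, through which germ cells silence transposons, 1 rose and 4 fell (20.0%, median -0.05). Henmt1, which methylates the ends of piRNAs, had 28.7, 32.5 and 46.9 CPM in the Mfn2-/- pools and 32.3, 52.3 and 48.6 CPM in the Mfn1&2-/- pools, against 91.0, 115 and 92.3 CPM in WT and 115, 93.6 and 104 CPM in Mfn1-/- pools (-1.34 ± 0.14; adjusted p = 3.37e-05, edgeR quasi-likelihood test). It was apart between the groups and held in both backgrounds. Mov10, an RNA helicase, had 0.168, 1.29 and 2.41 CPM (lowest, median and highest) in the 6 pools without Mfn2, against 3.32, 5.11 and 13.0 CPM in the 6 with it (-2.26 ± 0.53), a call lost without WT replicate 2. Mov10 was called in neither background by itself. Of 43 enzymes that modify histones or DNA 2 rose and 4 fell (median -0.02), or 3 and 3 with library size as the only scaling. Leaving out 1 library gave 0 or 1 higher each time, and 1 or 2 lower without any 1 Mfn2-/- pool, Mfn1&2-/- replicate 2, WT replicate 2, or Mfn1-/- replicate 2 or 3. Setd2, which trimethylates lysine on histone H3 along transcribed genes, had 501, 529 and 614 CPM (lowest, median and highest) in the 6 pools without Mfn2, against 644, 700.1 and 759 CPM in the 6 with it (-0.35 ± 0.07; adjusted p = 0.00664, edgeR quasi-likelihood test). Setd2 was not called in Mfn1&2-/- against Mfn1-/- (edgeR adjusted p = 0.106). Mll1 (Kmt2a), another histone methyltransferase, was low in Mfn2-/- pools (2.06, 2.08 and 2.14 CPM) and uneven in Mfn1&2-/- pools (5.64, 27.6 and 33.8 CPM), against 35.8, 25.3 and 43.0 CPM in WT and 34.7, 17.7 and 94.4 CPM in Mfn1-/- pools (-2.42 ± 0.58). That call was lost without Mfn2-/- replicate 1 or 3 or Mfn1-/- replicate 3, and Mll1 was not called in Mfn1&2-/- against Mfn1-/- (edgeR adjusted p = 0.247).

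Larger gene families were counted too. Of 284 Zfp zinc-finger genes 11 rose and 16 fell (9.51%, median -0.06), 2 and 5 of them held in both backgrounds. Among those held, Zfp534 and Gm13152 lie between 140 and 150 Mb on chromosome 4, near Mfn2, and Zfp69 between 120 and 130 Mb there. Zfp820, Zfp942, Zfp111 and Zfp646 lie on chromosomes 17 and 7. Whether position bears on these changes was not tested. Leaving out 1 library always lowered the count of rises, to 8 without Mfn2-/- replicate 2 or WT replicate 3 and to between 3 and 6 without any of the others, with 13 to 18 falls. Zfp942 had 19.8, 24.5 and 28.6 CPM (lowest, median and highest) in the 6 pools without Mfn2, against 43.3, 50.1 and 57.9 CPM in the 6 with it (-1.03 ± 0.11; adjusted p = 4.32e-05, edgeR quasi-likelihood test) and Zfp111 had 42.5, 45.0 and 55.6 CPM (lowest, median and highest) in the 6 pools without Mfn2, against 79.2, 92.9 and 156 CPM in the 6 with it (-1.06 ± 0.14). Both were apart between the groups, and whether related zinc-finger genes shared their reads was not tested. Of 193 solute carriers 15 rose and 8 fell (11.9%, median 0.05). Leaving out 1 library gave 9 to 14 higher, the 9 without Mfn1-/- replicate 2, and 6 to 11 lower. Slc41a1, a magnesium transporter, had 38.8, 31.1 and 39.3 CPM in the Mfn2-/- pools and 47.7, 42.2 and 44.1 CPM in the Mfn1&2-/- pools, against 24.0, 18.9 and 21.0 CPM in WT and 22.5, 19.8 and 17.5 CPM in Mfn1-/- pools (0.97 ± 0.13; adjusted p = 2.11e-04, edgeR quasi-likelihood test). Slc30a2, a zinc transporter, had 1.35, 2.57 and 8.30 CPM (lowest, median and highest) in the 6 pools without Mfn2, against 10.1, 12.4 and 20.0 CPM in the 6 with it (-2.15 ± 0.37), and it was no longer called in both backgrounds without Mfn2-/- replicate 1 or 2 or WT replicate 2 or 3. Slc46a3, a lysosomal carrier, had 393 counts over the 6 pools without Mfn2 and 2 over the 6 with it, 185-fold more per read (95% interval for counting error alone 50.95 to 1535). It had none in Mfn1&2-/- replicate 1, was not called by limma-voom, and lost its call in both backgrounds without Mfn2-/- replicate 2 or 3, any 1 WT pool, or Mfn1-/- replicate 1 or 2. Of 81 cytosolic ribosomal proteins 1 rose and 4 fell (6.17%, median -0.13). The lower count was 2 without Mfn2-/- replicate 2 or 3 or any 1 WT pool and 7 without Mfn1&2-/- replicate 1, and the higher count ran from 0 to 2. Rps3a1 (-0.86 ± 0.16) and Rpl22 (-0.47 ± 0.11) were among those that fell, and ribosomal protein genes have many processed copies that can share reads. Neither Rps3a1 nor Rpl22 was called in Mfn1&2-/- against Mfn1-/- (edgeR adjusted p = 0.0851 and 0.257). In the list of immune receptors, Btla and the chemokine Ccl2 rose and Mavs fell among 21 measured genes (median 0.13). Ccl2 had 0.400, 2.86 and 4.82 CPM (lowest, median and highest) in the 6 pools without Mfn2, against 0, 0.452 and 1.08 CPM in the 6 with it, and its call was lost without any 1 library except Mfn2-/- replicate 1 or Mfn1&2-/- replicate 1. Of 13 granulosa markers, 5 were lower and 0 higher in Mfn2-/- against WT, where 6.87% of all genes were lower. In Mfn1&2-/- against Mfn1-/- 1 was lower, where 2.6% of all genes were, and 0 higher. For the 6 against 6 comparison DESeq2 called 3 lower, of 649 over all genes, and limma-voom 0, of 437. Inha, the inhibin subunit of granulosa cells, was the single call of edgeR there (median -0.58). It had 5.39, 2.24 and 4.08 CPM in the Mfn2-/- pools and 5.98, 3.09 and 5.22 CPM in the Mfn1&2-/- pools, against 8.55, 19.8 and 77.9 CPM in WT and 2.63, 9.66 and 16.4 CPM in Mfn1-/- pools (-2.10 ± 0.58), with a log2 fold change of -1.39 without WT replicate 3. The call was lost there and without any 1 Mfn2-/- pool, Mfn1&2-/- replicate 2, WT replicate 2, or Mfn1-/- replicate 2 or 3.

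**Figure D4:**
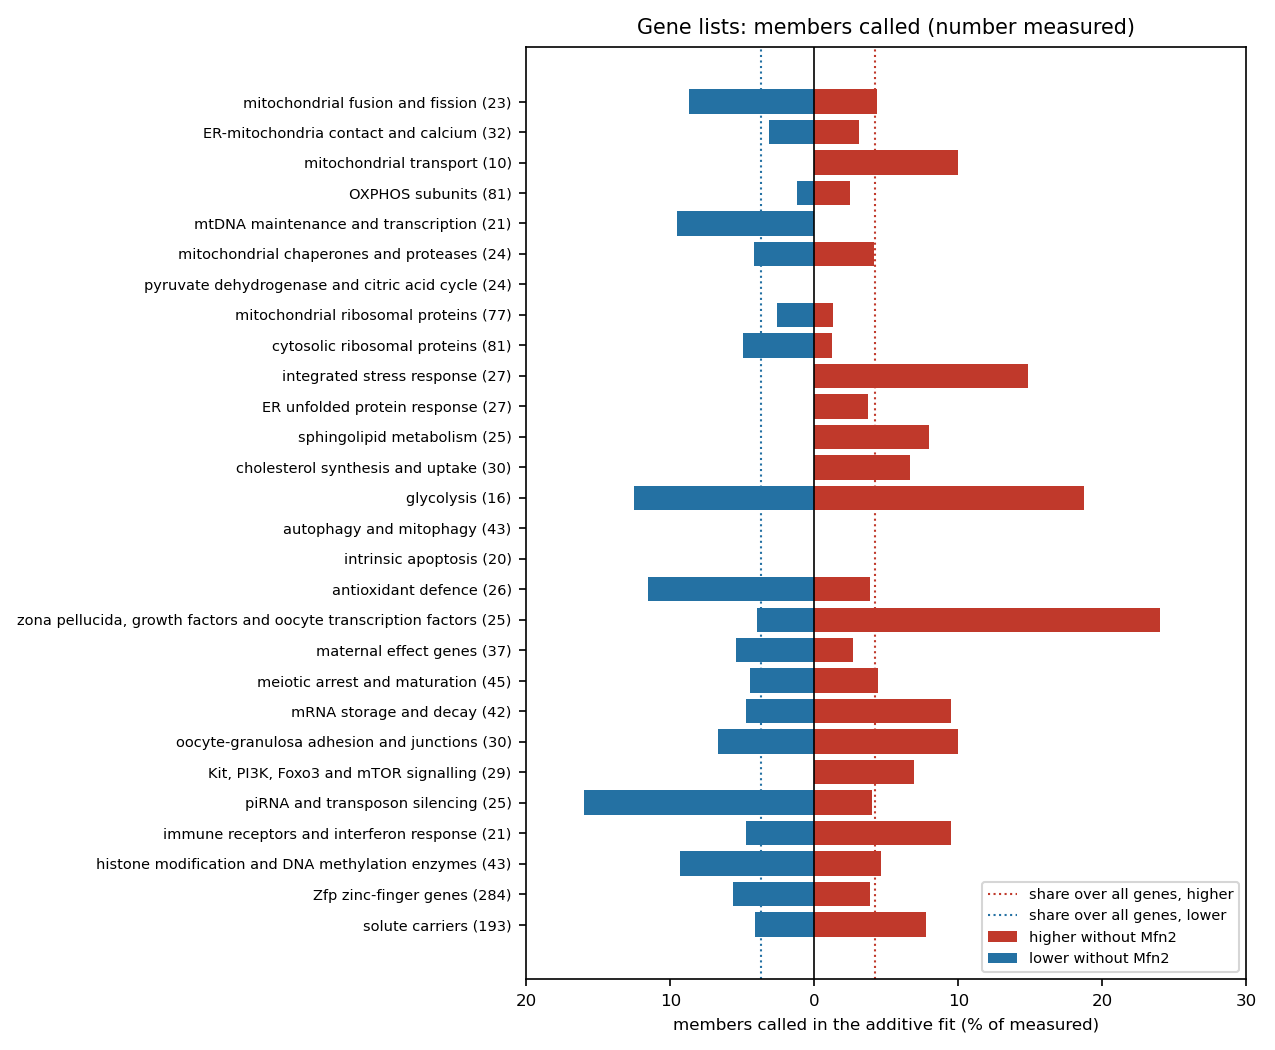
For each gene list with at least 10 measured members, cell type marker lists left out, bars give the percent of measured members called higher without Mfn2 (red, to the right) and lower (blue, to the left) in the 6 against 6 comparison. Dotted lines mark the shares over all genes, 4.21% and 3.67%. The longest red bar is that of zona pellucida, growth factor and transcription factor genes (6 of 25) and the longest blue bar that of the piRNA genes (4 of 25).

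The genes held in both backgrounds lay unevenly on the chromosomes. The shares below are descriptions without a test. Of 11385 genes, 11292 (99.2%) were located in GENCODE vM21 on GRCm38. Mfn2 lies on chromosome 4, and Mfn2 itself is left out of the counts that follow. Within 5 Mb of it 11 of 82 tested genes (13.4%) were held in both backgrounds, from 5 to 10 Mb 3 of 77 (3.90%), from 10 to 20 Mb 9 of 121 (7.44%), from 20 to 40 Mb 5 of 152 (3.29%), from 40 to 80 Mb 5 of 91 (5.49%) and beyond 80 Mb on that chromosome 1 of 212 (0.472%). On all other chromosomes together it was 131 of 10556 (1.24%). Within 10 Mb, 8 of the 14 held genes were higher and 6 lower without Mfn2. The shares called near Mfn2 were above those elsewhere in each background by itself, at 20.1% against 11.2% in Mfn2-/- against WT and 16.4% against 5.20% in Mfn1&2-/- against Mfn1-/-.

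The neighbours of Mfn2 moved both ways. Draxin, 0.226 Mb from its start, had 61.1, 61.9 and 70.0 CPM in the Mfn2-/- pools and 59.2, 44.3 and 48.1 CPM in the Mfn1&2-/- pools, against 20.4, 6.49 and 7.02 CPM in WT and 6.47, 6.71 and 1.17 CPM in Mfn1-/- pools (2.92 ± 0.35; adjusted p = 9.59e-05, edgeR quasi-likelihood test). Zfp534, 0.202 Mb to the other side, had 0.830, 1.55 and 1.74 CPM (lowest, median and highest) in the 6 pools without Mfn2, against 5.67, 10.1 and 15.7 CPM in the 6 with it. C87977, of a gene family expressed in oocytes with several near-identical copies (chr4:144206775-144213318), had 808, 932 and 1041 CPM (lowest, median and highest) in the 6 pools without Mfn2, against 372, 511 and 701 CPM in the 6 with it (0.83 ± 0.10; adjusted p = 1.25e-04, edgeR quasi-likelihood test). Dhrs3, Pik3cd and the genes just named all start within 4 Mb of Mfn2. Whether changes of such neighbours come from loss of Mfn2 itself or from other differences at its locus was not tested. In windows of 10 Mb with at least 20 tested genes, 209 in all, 130 had no gene held in both backgrounds. The window from 140 to 150 Mb on chromosome 4 had 14 of 82 (17.1%). The window from 90 to 100 Mb on chromosome 11 had 8 of 77 (10.4%), among them Car10, Acsf2, Prr15l and Grb7. Next by share came 70 to 80 Mb on chromosome 6, with 3 of 29 (10.3%), among them Eif2ak3 and Reep1. Then followed 90 to 100 Mb on chromosome 8, with 4 of 42 (9.52%). On chromosome 18, 70 to 80 Mb had 3 of 32 (9.38%), among them Zbtb7c and Rnf165. None of 369 tested genes on the X chromosome was held in both backgrounds, where 18 were called in the 6 against 6 comparison (4.88%).

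**Figure D5:**
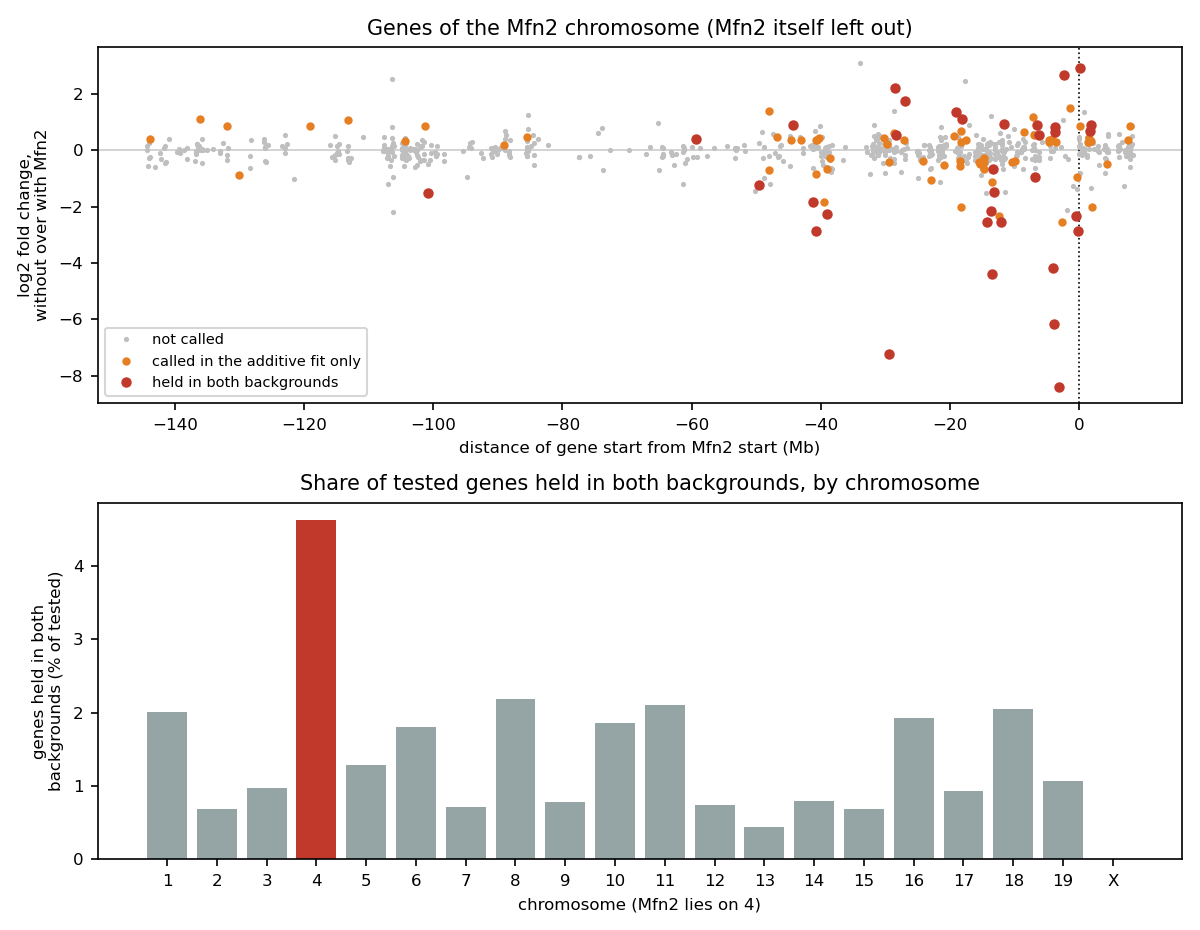
The upper panel plots each gene of chromosome 4, without Mfn2 itself, at its distance from Mfn2 in Mb and its log2 fold change without over with Mfn2; red dots are held in both backgrounds. The lower panel gives the percent of tested genes held in both backgrounds on each chromosome, from 0% on X to 4.63% (34 of 735) on chromosome 4.

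The last question was where the effect of Mfn2 loss differed with the state of Mfn1. The interaction test called 470 of 11385 genes (4.13%), 333 with a more positive effect where Mfn1 was absent (2.92%) and 137 with a more negative one (1.2%). With library size as the only scaling the split was 207 to 240. Leaving out any 1 pool made the count smaller, at 160 to 464. It fell most without Mfn2-/- replicate 2 or 3 (160 and 211), Mfn1&2-/- replicate 2 (228), WT replicate 2 or 3 (250 and 199) or Mfn1-/- replicate 1 (168). Among the 897 genes called for Mfn2 loss 44 had a called interaction, and among the 167 held genes 3 had one. These 3 were Gm7104, a predicted gene (log2 fold change -5.73 with and -1.03 without Mfn1), Entpd1, an enzyme that breaks down extracellular ATP (0.99 and 2.72), and Zfp69, a zinc-finger gene (1.02 and 2.52), chosen after their values were seen. An interaction that misses the threshold does not show equal effects.

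The 5 genes that follow had the largest called interactions among the genes also called in the 6 against 6 comparison and averaging at least 5 CPM in a genotype, predicted and clone names left out. Pnpla3, a lipase of lipid droplets, had 2.13, 0.415 and 2.01 CPM in the Mfn2-/- pools and 190.3, 300.4 and 148 CPM in the Mfn1&2-/- pools, against 0.559, 0.422 and 1.59 CPM in WT and 1.504, 1.07 and 0.4997 CPM in Mfn1-/- pools. Cdc5l, a core factor of the spliceosome, had 6.46, 3.24 and 5.49 CPM in the Mfn2-/- pools and 336, 272 and 270.1 CPM in the Mfn1&2-/- pools, against 1.92, 3.12 and 5.68 CPM in WT and 3.46, 1.505 and 3.16 CPM in Mfn1-/- pools. Stk32a, a protein kinase, had 2.26, 0.166 and 0.803 CPM in the Mfn2-/- pools and 91.0, 85.6 and 90.5 CPM in the Mfn1&2-/- pools, against 0.639, 0.928 and 1.75 CPM in WT and 0.526, 0 and 0 CPM in Mfn1-/- pools. All 3 were high in the pools that lacked both mitofusins and in no other pool, with interactions of 6.80 ± 0.86, 6.25 ± 0.48 and 8.93 ± 1.02 (edgeR adjusted p = 8.45e-04, 8.66e-06 and 3.19e-04). Tekt4, of the tektin filaments of cilia, was lowest in the Mfn1-/- pools, with 7.32, 7.47 and 7.43 CPM in Mfn2-/- pools and 11.95, 4.73 and 8.86 CPM in Mfn1&2-/- pools, against 4.23, 6.58 and 4.18 CPM in WT and 0.827, 0.0627 and 0.833 CPM in Mfn1-/- pools (interaction 3.35 ± 0.74; edgeR adjusted p = 0.0228). The 6 against 6 calls of Cdc5l were lost without any 1 Mfn1-/- pool, those of Stk32a without Mfn2-/- replicate 1 or any 1 Mfn1&2-/- or Mfn1-/- pool, and those of Tekt4 without any 1 library but Mfn2-/- replicate 1 or 2 or WT replicate 2. Rnaset2b, a ribonuclease with a near-identical copy that can share its reads, had 3.66, 2.82 and 2.14 CPM in the Mfn2-/- pools and 0.589, 0.789 and 0.606 CPM in the Mfn1&2-/- pools, against 3.99, 8.86 and 5.18 CPM in WT and 12.3, 7.02 and 9.74 CPM in Mfn1-/- pools (interaction -2.78 ± 0.58; edgeR adjusted p = 0.0185).

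Among the lists, the medians of cytosolic ribosomal proteins and of sphingolipid genes lay furthest apart between the backgrounds. Of the 81 ribosomal protein genes 22 fell and 1 rose in Mfn2-/- against WT, where 6.87% of all genes fell and 4.52% rose. In Mfn1&2-/- against Mfn1-/- 1 fell and 1 rose, where 2.6% of all genes fell and 2.76% rose. The median log2 fold changes were -0.33 and 0.09. The interaction was called for 12 of the 81 genes (14.8%, against 4.13% of all genes), each time with the more positive effect where Mfn1 was absent. Rpl14 had 58.5, 50.2 and 62.9 CPM in the Mfn2-/- pools and 131, 91.1 and 95.1 CPM in the Mfn1&2-/- pools, against 138, 131 and 132 CPM in WT and 109, 125 and 110.3 CPM in Mfn1-/- pools (interaction 1.11 ± 0.19; edgeR adjusted p = 0.00696). Its low values were those of the Mfn2-/- pools alone. The sphingolipid list had medians of 0.28 and -0.13. With library size as the only scaling the interaction of all genes shifted by -0.109.

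The 13 genes called in opposite directions were chosen by that pattern and are given without further test. Tgfb2, a growth factor of the TGF-beta family, averaged 438 ± 27.5 CPM in Mfn2-/- and 642 ± 44.5 CPM in WT pools, and 886 ± 62.0 CPM in Mfn1&2-/- and 679 ± 59.7 CPM in Mfn1-/- pools (SD, n = 3 each). Ugcg, which makes glucosylceramide and belongs to the sphingolipid list, averaged 47.1 ± 9.78 CPM in Mfn2-/- and 88.0 ± 49.4 CPM in WT pools, and 237 ± 6.68 CPM in Mfn1&2-/- and 61.4 ± 8.77 CPM in Mfn1-/- pools (SD, n = 3 each). Umodl1, of little-known function, averaged 395 ± 31.1 CPM in Mfn2-/- and 945 ± 102 CPM in WT pools, and 988 ± 64.3 CPM in Mfn1&2-/- and 739 ± 101 CPM in Mfn1-/- pools (SD, n = 3 each). All 3 were below WT in Mfn2-/- pools and above Mfn1-/- pools in Mfn1&2-/- pools. The same order held for Pes1, Grb10, Spdl1, Ppap2a, BC052040, Zfp296, Rpl13a and Itga9, and the reverse order for Lsm11 and Enpp4.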

How the data were processed

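Total RNA of 12 oocyte pools was sequenced. The authors deposited whole-number read counts per gene in 1 table, and the submitters' processing notes name mm10, FastQC 0.11.7, STAR 2.7.0a and edgeR. For the counting tool, its annotation, its strand setting and its handling of reads with several matches, the sources used here give nothing, and copies of multigene families are therefore uncertain. Pools were grouped by labelled genotype. Counts were fitted with edgeR 4.0.16 in R 4.3.3 (TMM scaling, filterByExpr, which kept all 11385 genes, quasi-likelihood F-tests, Benjamini-Hochberg adjustment over all genes, threshold 0.05): an additive model of Mfn1 and Mfn2 status (9 residual degrees of freedom), and 4 genotype means (8 residual degrees of freedom) for Mfn2-/- against WT, Mfn1&2-/- against Mfn1-/- and their difference. Log2 fold changes are given ± SE. Gene positions came from GENCODE vM21 on GRCm38 and promoters from RefSeq. The members and lists were chosen with earlier results of these data known.

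Genes were named by a rule: Mfn1 and Mfn2, the 12 largest changes in each direction among held genes whose pools did not overlap and that averaged at least 5 CPM on the higher side (predicted and clone names left out), up to 3 called members of each list by p, the 5 largest called interactions among genes also called in the additive model and averaging at least 5 CPM in any genotype, and the 5 called genes within 10 Mb of Mfn2 with the smallest p. Alternatives were other scalings, DESeq2 1.42.0, limma-voom (limma 3.58.1), filters, a replicate block, a fit without the covariate, a 1.5-fold threshold, each background from its own pools, and leaving out each pool. Simulated counts for the 6 against 6 comparison had 50 genes changed at each size. These genes averaged at least 5 CPM and changed alike in both backgrounds, and no effect of Mfn1 was simulated. The shares therefore hold for that setting only. Recovery was 62% at 1.5-fold, 86% at 2-fold and 100% at 4-fold and 8-fold, and 3.87% of calls were false. Called in both backgrounds there were 24%, 64%, 92% and 100%. No transcript encoded by mitochondrial DNA was in the table.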

Additional observations from a re-analysis of the deposited data

Results flagged for a closer look

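In 19 of 186 groups of 6 pools, 1 pool stood apart from the other 5 by Dixon's criterion. Chance alone does this in about 5% of groups whose 6 values come from 1 normal population. Each group here mixes 2 genotypes, and some values lie near 0 CPM, so the 19 cannot be read as an excess. Highest among the pools without Mfn2 were Prr15l (Mfn2-/- replicate 2, 0.6643 CPM), Grb7 (Mfn1&2-/- replicate 3, 2.422 CPM), Rps3a1 (Mfn1&2-/- replicate 1, 14.48 CPM), Hsd17b13 (Mfn1&2-/- replicate 1, 5.472 CPM), Zar1l (Mfn1&2-/- replicate 1, 374.8 CPM) and Nrf1 (Mfn1&2-/- replicate 2, 178.6 CPM). The lowest pool without Mfn2 stood apart in Mterfd1 (Mfn2-/- replicate 1, 3.462 CPM). Highest among the pools with Mfn2 were Inha (WT replicate 3, 77.92 CPM), Acsf2 (WT replicate 3, 3.675 CPM), Abcb11 (Mfn1-/- replicate 3, 3.414 CPM), Mov10 (WT replicate 2, 12.99 CPM), Sgms2 (WT replicate 3, 7.099 CPM), Draxin (WT replicate 1, 20.44 CPM), Kif1b (WT replicate 3, 175.9 CPM), Slc46a3 (WT replicate 1, 0.1597 CPM), Zfp111 (Mfn1-/- replicate 1, 155.5 CPM) and Mll1 (Mfn1-/- replicate 3, 94.44 CPM). Lowest among the pools with Mfn2 were Tceanc2 (WT replicate 1, 11.74 CPM) and Nlrp9a (Mfn1-/- replicate 1, 280.7 CPM).

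For 9 named genes the effect of Mfn2 loss differed with the state of Mfn1 by edgeR's interaction test. The interaction log2 values were 6.796 for Pnpla3 (adjusted p = 8.45e-04), -2.783 for Rnaset2b (adjusted p = 0.0185), 3.348 for Tekt4 (adjusted p = 0.0228), 6.255 for Cdc5l (adjusted p = 8.66e-06), 8.933 for Stk32a (adjusted p = 3.19e-04), -1.193 for Ndufb5 (adjusted p = 0.045), 0.9721 for Zar1l (adjusted p = 0.04), 0.9143 for Mrps25 (adjusted p = 0.0125) and 1.109 for Rpl14 (adjusted p = 0.00696).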

How the results depend on the processing

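The 6 against 6 comparison called 1408 genes as the mean of both single-background contrasts and 116 against a 1.5-fold threshold, where 897 were called as reported, and 624 to 947 without 1 pool. DESeq2 called 1044 genes in Mfn1&2-/- against Mfn1-/-, 903 interactions and 261 genes in both backgrounds. Counting called genes whose 6 pools lay apart gave 345 in place of 167. Without 1 pool, Mfn2-/- against WT called 708 to 1429 genes, Mfn1&2-/- against Mfn1-/- 295 to 689, the interaction 160 to 464, and both backgrounds the same way 113 to 171. The causes were not tested. The total number of genes called in each of these comparisons stayed within 1.5 times under the other scalings, limma-voom and the filters, but the interaction calls split 207 higher to 240 lower with library size as the only scaling, against 333 to 137, and counts within gene lists moved more. Of 167 held genes 65 were held without each pool in turn, and of 92 named calls 64 were kept without each pool and none reversed under the alternatives run.

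Libraries that shared a replicate number across genotypes gave 18 pairs, whose deviations correlated at -0.134 to 0.179. The 4 pairs above 0.1 all had the same Mfn2 status. Mfn2-/- with Mfn1&2-/- gave 0.179, 0.145 and -0.025 in replicates 1, 2 and 3, and WT with Mfn1-/- gave 0.146, 0.007 and 0.113. Pairs of unlike Mfn2 status ran from -0.134 to 0.063. Of 12 libraries, 6 were closest to their own number. Whether the numbers mark a shared batch within pools of like Mfn2 status was not tested. They are the numbers in the sample titles. The sample descriptions carry other numbers, which were not examined. With the replicate block the counts were 685 for the 6 against 6 comparison, 1082 and 545 for the single backgrounds, 276 for the interaction and 157 for both backgrounds the same way.

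Limits: 3 pools a genotype, of 50 oocytes each, limit precision, and genes under about 0.253 CPM rest on 3 counts or fewer in a library. Intervals cover counting error only, since reads without molecular identifiers are not independent molecules.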

Other observations

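Some transcripts were present in some pools of a genotype and near absent in others. Genes with at least 10 CPM in 1 pool and under 1 CPM in another of the same genotype numbered 12 in Mfn2-/-, 11 in Mfn1&2-/-, 12 in WT and 7 in Mfn1-/- pools. Spesp1, a sperm acrosome protein, had 0, 22.3 and 10.8 CPM in Mfn2-/- and 0, 23.1 and 24.1 CPM in Mfn1&2-/- pools, and the pool at 0 was replicate 1 of each. Agpat9, an acyltransferase of glycerolipid synthesis, had 101, 0.590 and 55.5 CPM in WT and 42.6, 0 and 51.2 CPM in Mfn1-/- pools. Gsto2, a glutathione transferase, had 32.4, 0.759 and 22.2 CPM in WT and 24.7, 0.063 and 41.3 CPM in Mfn1-/- pools. In both genes the low pool was replicate 2 of each genotype. Prr18, of little-known function, had 34.9, 0 and 0 CPM in Mfn2-/- pools. These genes were chosen after their values were seen, and the labels do not say what a shared replicate number stands for.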
